A study of Mus musculus with 4 samples.

Results

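The transcript levels of 42 imprinted genes were examined in mouse embryos that lacked the RNA helicase gene Ddx6. The 42 genes were chosen by their symbols, as genes known to be expressed mainly from the maternal or the paternal allele, and all were among the 24421 genes of the count table. At least 10 reads in at least 1 library were required, which kept 41 of the 42 and 14393 genes in all. By the textbook assignment 16 were maternally expressed and 24 were paternally expressed (23 of them kept). For Gnas and Inpp5f imprinting differs between isoforms. All embryos were of the ICR strain. Wild-type embryos gave 1 library at embryonic day (E) 7.5 and 1 at E8.5, called E7.5 WT and E8.5 WT. The Ddx6 -/- embryos were all taken at E8.5 and gave 2 libraries, KO1 and KO2. The deletion allele arose by Cre removal of a floxed exon in the germline of a CAG-Cre deleter cross, so every cell of a KO embryo carried it. Each KO library pooled embryos. The E8.5 embryos were genotyped from extraembryonic tissue or yolk sac, per the study's methods. How much of this tissue stayed in the RNA is not stated. Per the study's text, KO1 held embryos from before and after head-fold formation, and KO2 held embryos from before it alone, so genotype and developmental stage cannot be told apart. The reads give no allele of origin, so a level here is the sum of both alleles.

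Imprinting is the marking of a gene by DNA methylation in the egg or the sperm, so that the embryo later uses the copy of 1 parent. Imprinted genes lie in clusters, each under an imprinting control region, and several clusters hold a long noncoding RNA that silences or is expressed in opposition to its protein-coding neighbours. Paternally expressed genes such as Igf2 promote fetal and placental growth, and maternally expressed genes such as Igf2r, Grb10 and Cdkn1c restrain it. Many are highly expressed in mesoderm, endoderm and extraembryonic tissue of the early embryo, and some are imprinted only in the placenta.

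Sequences are shown first for some of the members named in the comparisons. ZFP57, a zinc finger protein that keeps methylation on imprinting control regions, binds the methylated hexamer TGCCGC. Windows of 300 bases that span an annotated start (RefSeq, GRCm38.p6) were searched for TGCCGC on both strands, where the other strand reads GCGGCA, and matches are in capitals. The first window is that of Asb4 (chr6:5383136-5383435, plus strand), the member that was higher in both KO libraries. The second is that of Nap1l5 (chr6:58907077-58907376, minus strand), the member that was lower in both. The others are those of Plagl1 (chr10:13090582-13090881, plus strand) and Mest (chr6:30737800-30738099, plus strand). These are 2 of the members that differed between the wild-type stages and between the KO libraries. Among the rest that differed in both, the windows of Zim1 and Nnat held 1 match each. Those of Dlk1, Peg12, Igf2r, Airn, Ascl2 and Sfmbt2 held none, and Rtl1 had no window.
Asb4: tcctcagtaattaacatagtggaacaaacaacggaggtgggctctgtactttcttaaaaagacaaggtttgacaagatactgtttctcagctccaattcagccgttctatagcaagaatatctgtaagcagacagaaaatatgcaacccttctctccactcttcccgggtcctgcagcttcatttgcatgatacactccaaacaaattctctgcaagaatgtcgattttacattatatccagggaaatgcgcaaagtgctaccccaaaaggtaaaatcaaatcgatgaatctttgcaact
Nap1l5: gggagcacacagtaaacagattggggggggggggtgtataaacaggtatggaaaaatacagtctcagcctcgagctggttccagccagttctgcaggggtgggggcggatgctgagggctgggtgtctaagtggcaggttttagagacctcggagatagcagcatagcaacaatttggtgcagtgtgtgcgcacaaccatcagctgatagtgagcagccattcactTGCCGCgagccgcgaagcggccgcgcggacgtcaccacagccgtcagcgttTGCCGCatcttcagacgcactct
Plagl1: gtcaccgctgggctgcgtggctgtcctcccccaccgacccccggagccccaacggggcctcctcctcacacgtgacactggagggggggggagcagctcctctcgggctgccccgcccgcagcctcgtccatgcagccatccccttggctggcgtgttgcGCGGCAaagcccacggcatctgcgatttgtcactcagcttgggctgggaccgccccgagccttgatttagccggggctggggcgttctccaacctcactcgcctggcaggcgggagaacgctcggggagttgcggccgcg
Mest: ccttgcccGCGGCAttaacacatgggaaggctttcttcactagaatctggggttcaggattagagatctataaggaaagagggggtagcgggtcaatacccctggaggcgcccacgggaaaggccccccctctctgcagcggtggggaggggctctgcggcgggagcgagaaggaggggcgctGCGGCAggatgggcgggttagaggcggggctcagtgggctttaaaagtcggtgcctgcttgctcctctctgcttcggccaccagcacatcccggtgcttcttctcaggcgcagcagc
The Asb4 window held no match and 6 CG dinucleotides. The Nap1l5 window held 2 matches and 17 CG dinucleotides, the Plagl1 window 1 match and 26, and the Mest window 2 matches and 17. Another window of Asb4 (chr6:5390160-5390459) and another of Mest (chr6:30733256-30733555) held no match and 8 CG dinucleotides each. A window was found for 34 of the 42 members. Of these, 11 (32.4%) had at least 1 match in a window, beside 3527 of 27025 genes (13.1%) with a RefSeq window. The share was 4 of 13 for maternally and 7 of 19 for paternally expressed members. Over windows it was 12 of 51 (23.5%), beside 3813 of 32851 (11.6%), and the median number of CG dinucleotides was 14 in member windows and 7 in all windows. A match is a run of letters and was not examined as a binding site.

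The second set of sequences belongs to the Dlk1-Dio3 cluster on chromosome 12, where Rtl1, a paternally expressed gene derived from a retrotransposon, is overlapped on the other strand by maternally expressed microRNAs (miRNAs). They are shown because DDX6 acts in miRNA-mediated silencing and because these miRNAs, unlike most, pair with their target along its whole length. RefSeq places 11 mature miRNAs from 6 hairpins opposite Rtl1 (chr12:109589193-109600330, minus strand), and all 11 had a full complement in an Rtl1 transcript. Their seeds, bases 2 to 8, were 11 different words and are in capitals for 1 arm of each of 5 hairpins.
mmu-miR-431-5p: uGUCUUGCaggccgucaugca
mmu-miR-433-3p: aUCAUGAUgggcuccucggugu
mmu-miR-127-3p: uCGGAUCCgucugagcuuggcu
mmu-miR-434-3p: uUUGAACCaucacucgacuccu
mmu-miR-136-5p: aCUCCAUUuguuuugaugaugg
In the order shown they lie at chr12:109590459-109590479, chr12:109591781-109591802, chr12:109592888-109592909, chr12:109594565-109594586 and chr12:109595331-109595352, plus strand. The libraries were made for mRNA, and of 20 miRNA genes hosted by members none reached 10 reads in a library, so mature miRNAs were not measured.

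The libraries held between 8198402 (KO1) and 12562640 (E8.5 WT) counts. Ddx6 itself had 2943 reads at E7.5 and 5715 at E8.5 in WT embryos, against 706 in KO1 and 929 in KO2, and relative to E8.5 WT its log2 level differed by -2.54 ± 0.10 (SD, n = 2). The deleted exon cannot be told from the others in counts per gene. The summed level of 6 trophoblast giant cell markers, of which 4 were kept (the prolactin family genes Prl3d1, Prl2c2, Prl7a1 and Prl4a1), was 6.05 CPM at E7.5 and 0.732 at E8.5 in WT embryos, against 1.43 in KO1 and 753 in KO2, with the placental lactogen gene Prl3b1 at 0 in all 4 libraries. CPM is the usual depth-scaled unit, the reads of a gene relative to all reads of its library, after scaling by TMM factors, which bring most genes level between libraries, whereas read counts are as deposited and not scaled for depth. Primitive erythroid markers summed to 20.2, 241, 1.79 and 1.56 CPM in the same order, and visceral endoderm markers to 2547, 1759, 808 and 847, with all 5 markers of either list kept. Markers of extraembryonic mesoderm (5 of 5 kept) summed to 431, 778, 1119 and 778 CPM, those of parietal endoderm (4 of 4) to 1179, 1035, 1282 and 1593, and those of extraembryonic ectoderm (5 of 5) to 358, 224, 146 and 369. Most of this last sum in KO2 came from Eomes, which per the study's text is also expressed in the primitive streak. Decidua markers (4 of 4) summed to 204, 21.8, 35.7 and 165 CPM and ectoplacental cone markers (1 of 3 kept, Psg22) to 2.35, 0.244, 0 and 40.5. In RNA of embryos, fewer cells of a type and less RNA per cell cannot be told apart. Extraembryonic tissue taken for genotyping may also differ between libraries. The part of these tissues in the results below was not tested except where a value is given.

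The imprinted genes ranged from strongly expressed transcripts to genes with few reads. Reads of the 42 members made up 1.27% of the E7.5 WT library, 1.55% of E8.5 WT, 1.78% of KO1 and 1.2% of KO2. H19, the noncoding RNA beside Igf2, had 69631 reads in E7.5 WT and was the fourth of all genes by reads in both wild-type libraries, the fifth in KO1 and the seventh in KO2. It took 45.5% of the members' reads in E7.5 WT and between 26.2% and 26.9% in the other libraries. Per length of annotated exon, H19 was the first of the kept members in all 4 libraries, at 2380 RPKM (CPM per kilobase of exon) at E7.5 and 1733 at E8.5 in WT embryos, against 1848 in KO1 and 1277 in KO2. Igf2 was the second in E8.5 WT at 363 RPKM and in KO1 at 417, but the fourth in E7.5 WT at 194 and in KO2 at 154. Mest followed at 348 RPKM in E8.5 WT, then Peg10 at 248, Phlda2 at 157, Grb10 at 141 and Cdkn1c at 106. At the other end, Nap1l5, Ascl2, Dcn and Rtl1 were each under 2.3 CPM in E8.5 WT. The plot of levels by cluster shows these values for every kept member.

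**Figure D1:**
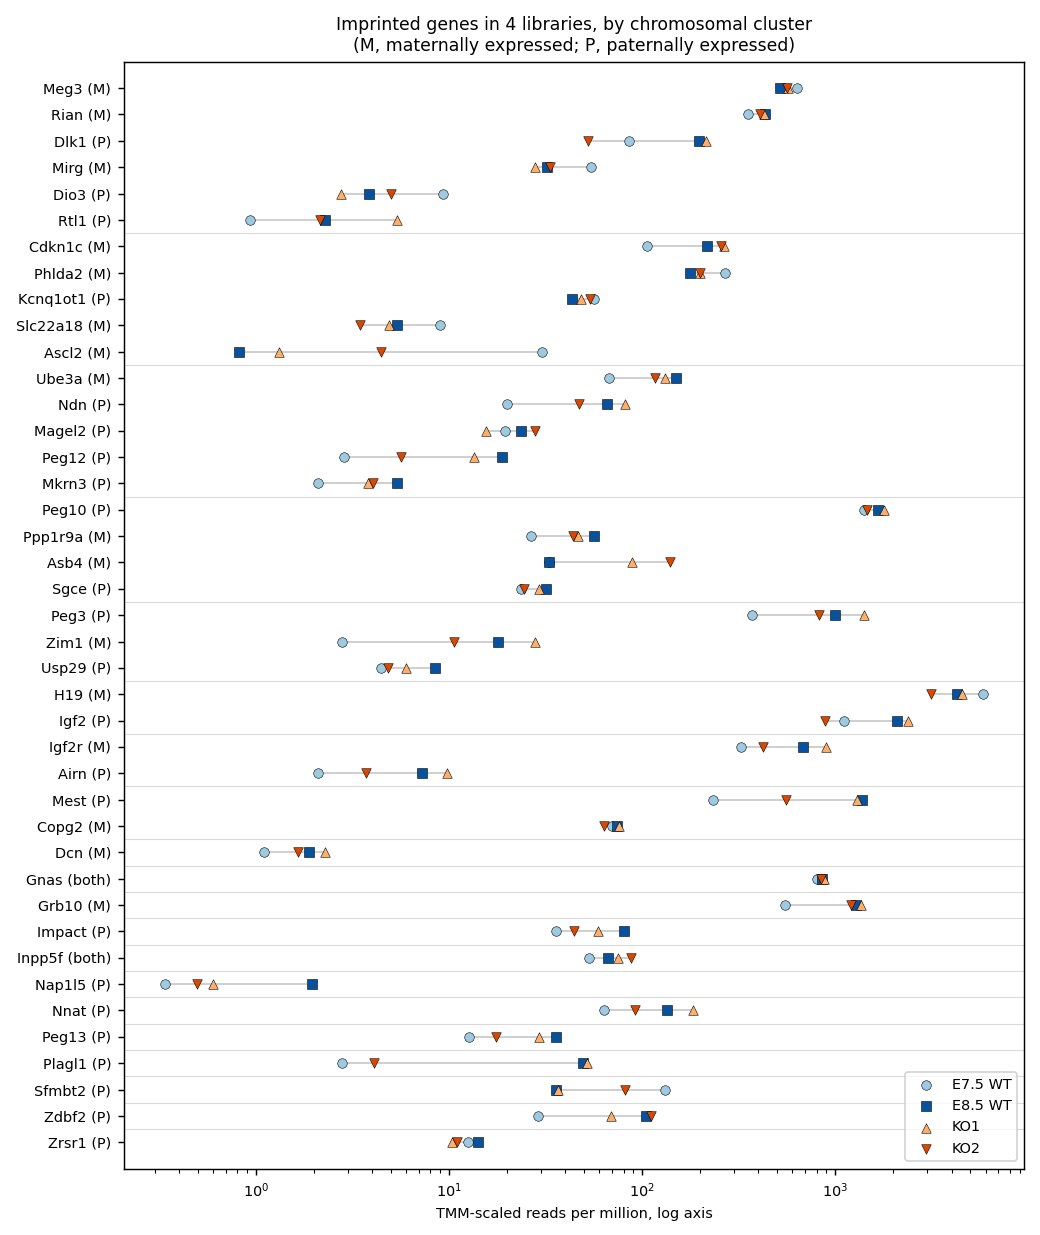
Level of each of the 41 kept imprinted genes in the 4 libraries, in CPM on a log axis. Each point is 1 library, and horizontal lines separate chromosomal clusters. Asb4 lies at 33.0 in both wild-type libraries and at 88.7 and 139 in KO1 and KO2, while Plagl1 in KO2 (4.10) lies beside E7.5 WT (2.77) and in KO1 (52.0) beside E8.5 WT (49.1).

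The first comparison asked which imprinted genes differed between the wild-type stages, and it sets the scale for the KO libraries. With 1 library a stage it carries no test. A difference above 1 or below -1 on the log2 scale of CPM (prior count 2), the fold criterion of the study's methods, was counted as a call. Of 41 members, 20 (48.8%) were higher in E8.5 WT than in E7.5 WT, beside 12.2% of all genes kept. The number lower was 3 (7.32%), beside 7.82% of all genes. The higher members comprised 6 of 16 maternally and 14 of 23 paternally expressed genes. At any size of difference, 20 of 23 paternally and 9 of 16 maternally expressed members were higher in E8.5 WT, beside 49.0% of all genes. The median log2 difference was 1.16 for paternally expressed members, 0.18 for maternally expressed members and -0.02 for all genes.

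Among growth regulators, Plagl1, a zinc finger transcription factor also called ZAC1, showed the largest rise in level among the members, from 2.77 CPM in E7.5 WT to 49.1 in E8.5 WT, a log2 difference of 4.06 (95% counting interval 3.64 to 4.70). Peg12, a FRAT family gene, differed by 2.64, Zim1, a maternally expressed zinc finger gene, by 2.61, and Mest, the mesoderm specific transcript, by 2.56. Nap1l5 differed by 2.05, but from 4 reads to 24, and the lower end of its interval lay at the threshold. These 5 genes had differences above 2. The others called higher were Zdbf2 (1.86), Ndn (1.72), Airn (1.70), Peg13 (1.48), Peg3 (1.43), Mkrn3 (1.28), Grb10 (1.23), Dlk1 (1.21), Impact (1.16), Ube3a (1.15), Rtl1 (1.15), Nnat (1.09), Ppp1r9a (1.08), Igf2r (1.07) and Cdkn1c (1.04). Igf2, the fetal growth factor, was just under the threshold at 0.90, and its receptor Igf2r, which clears IGF2, just above it.

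The 3 members lower at E8.5 are expressed in the trophoblast or act on thyroid hormone. Ascl2, a basic helix-loop-helix factor of trophoblast progenitors, had 358 reads at E7.5 and 10 at E8.5 in WT embryos, against 11 in KO1 and 54 in KO2, and the wild-type stages differed by -4.93 on the log2 scale (-6.28 to -4.31). Sfmbt2, a Polycomb protein imprinted in extraembryonic tissue, had 131 CPM at E7.5 and 35.9 at E8.5 in WT embryos, against 36.6 in KO1 and 81.9 in KO2, and Dio3, the deiodinase that inactivates thyroid hormone, had 110 reads at E7.5 and 47 at E8.5 in WT embryos, against 23 in KO1 and 61 in KO2. Of the 5 extraembryonic ectoderm markers, 3 (Elf5, Eomes and Esrrb) were also lower at E8.5 by more than the threshold and 1 (Sox2) was higher, and the part of this tissue in the levels was not tested.

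**Figure D2:**
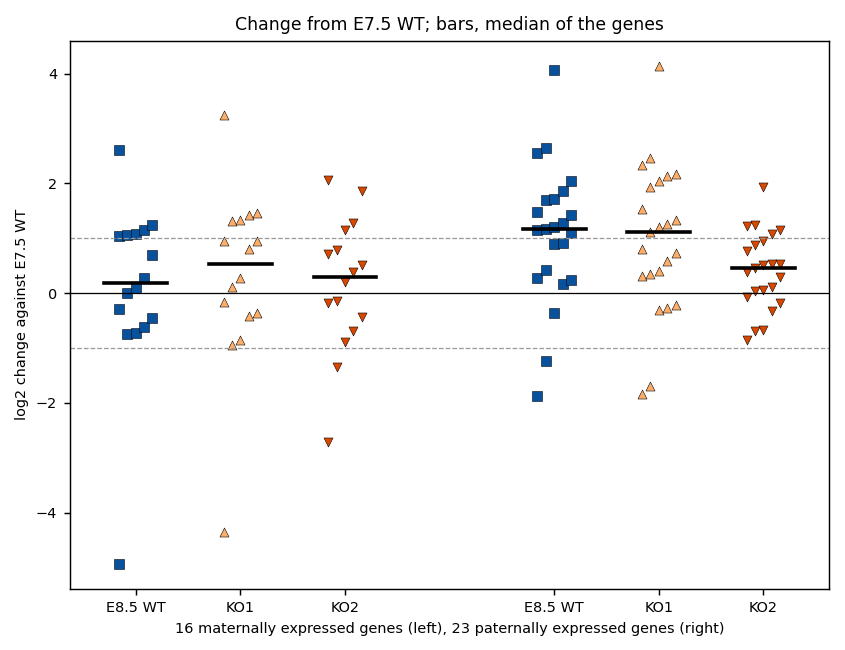
Log2 change against E7.5 WT of 16 maternally expressed (left) and 23 paternally expressed (right) imprinted genes in E8.5 WT, KO1 and KO2; each point is 1 gene in 1 library, black bars are medians over the genes and dashed lines mark the threshold of 1. The median of the paternally expressed genes is 1.16 in E8.5 WT, against 1.11 in KO1 and 0.46 in KO2, and that of the maternally expressed genes is 0.18, 0.53 and 0.29.

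The second comparison asked which imprinted genes differed from E8.5 WT in the Ddx6 KO libraries. Most did not pass the threshold. Of 41 members, 30 (73.2%) were within 1 of E8.5 WT in both KO libraries, beside 81.8% of all genes, and these were 14 of 16 maternally and 14 of 23 paternally expressed genes and both isoform-dependent ones. Asb4 was the 1 member (2.44%) above the threshold in both KO libraries, beside 3.44% of all genes, and Nap1l5 was the 1 member below it in both, beside 1.79%. Both shares were near the background, so the calls describe these genes and not the group.

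Asb4 (chr6:5383386-5433022, plus strand), which encodes an ankyrin repeat and SOCS box protein that recruits targets for ubiquitination, had 33.0 CPM at E7.5 and 33.0 at E8.5 in WT embryos, against 88.7 in KO1 and 139 in KO2. Both KO libraries were above both wild-type libraries. The level was 2.68-fold higher in KO1 and 4.21-fold higher in KO2 than in E8.5 WT, with log2 changes of 1.42 (1.25 to 1.61) and 2.07 (1.92 to 2.24) and a mean of 1.75 ± 0.46 (SD, n = 2). The change was thus larger than the spread between the KO libraries. The giant cell markers summed to 1.43 CPM in KO1 and 753 in KO2, and the part of trophoblast in the Asb4 level was not tested. The p-values against E8.5 WT rest on the spread between the 2 KO libraries, which were separate pools. Those against both WT libraries as 1 group also take in the difference between the WT stages, and Asb4 was at 33.0 CPM in both stages. By the edgeR quasi-likelihood test of KO against E8.5 WT the unadjusted p was 0.00635 and the Benjamini-Hochberg adjusted p was 0.666. Against both WT libraries as 1 group they were 0.00130 and 0.900, while the adjusted p of DESeq2 was 0.00113 against E8.5 WT and 1.11e-04 against both.

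Asb4 differed from the other members of its cluster. Peg10, a retrotransposon-derived gene needed in the placenta, had 1406 CPM at E7.5 and 1655 at E8.5 in WT embryos, against 1793 in KO1 and 1463 in KO2. Sgce, epsilon-sarcoglycan, had 23.6, 31.7, 29.2 and 24.3 CPM, and Ppp1r9a, the actin-binding neurabin I, had 26.7, 56.5, 46.4 and 43.7 CPM in the same order. None of these 3 passed the threshold in a KO library. Of further imprinted genes of this region that were not members, Pon2 and Pon3 were above E8.5 WT in both KO libraries. Their log2 changes in KO1 and KO2 were 0.52 and 0.28 for Pon2, and 1.07 and 0.66 for Pon3, which had 19 reads in E8.5 WT. Calcr and Tfpi2 were below E8.5 WT in KO1 and above it in KO2. Within a library, reads of Asb4 per 100 reads of Peg10 were 2.35 at E7.5 and 1.99 at E8.5 in WT embryos, against 4.95 in KO1 and 9.51 in KO2, and per 100 reads of Ppp1r9a they were 124 at E7.5 and 58.3 at E8.5 in WT embryos, against 191 in KO1 and 318 in KO2. These ratios need no scaling between libraries, and both were higher in both KO libraries than in either WT library.

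Nap1l5 (chr6:58905233-58907076, minus strand), a nucleosome assembly protein family gene in an intron of Herc3, had 4 reads at E7.5 and 24 at E8.5 in WT embryos, against 5 in KO1 and 6 in KO2. Both KO libraries were near E7.5 WT and below E8.5 WT. The log2 changes against E8.5 WT were -1.46 (-3.46 to -0.29) in KO1 and -1.67 (-3.57 to -0.66) in KO2, wide intervals that reflect 5 and 6 reads. By edgeR the unadjusted p was 0.0722 and the adjusted p 0.666. Herc3, its host, had 248, 383, 267 and 524 reads, so Nap1l5 reads per 100 Herc3 reads were 1.61 at E7.5 and 6.27 at E8.5 in WT embryos, against 1.87 in KO1 and 1.15 in KO2.

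Across the members, edgeR gave no call. Against E8.5 WT, 0 members and 0% of all genes had an adjusted p under 0.05 by edgeR, and 2 members (Asb4 and Impact) had an unadjusted p under 0.05, beside 7.31% of all genes. Impact, an inhibitor of the kinase GCN2, had 35.8 CPM at E7.5 and 80.4 at E8.5 in WT embryos, against 59.2 in KO1 and 44.1 in KO2, and its p by edgeR was 0.0480 unadjusted and 0.666 adjusted. By DESeq2, 1 of 38 members with an adjusted p, Asb4, passed, beside 0.261% of genes. Against both WT libraries as 1 group, 0 members and 0% of genes passed the adjusted threshold by edgeR and 1 (Asb4) the unadjusted one, beside 3.93% of genes, and by DESeq2 1 of 41 (Asb4) passed, beside 0.222%.

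**Figure D3:**
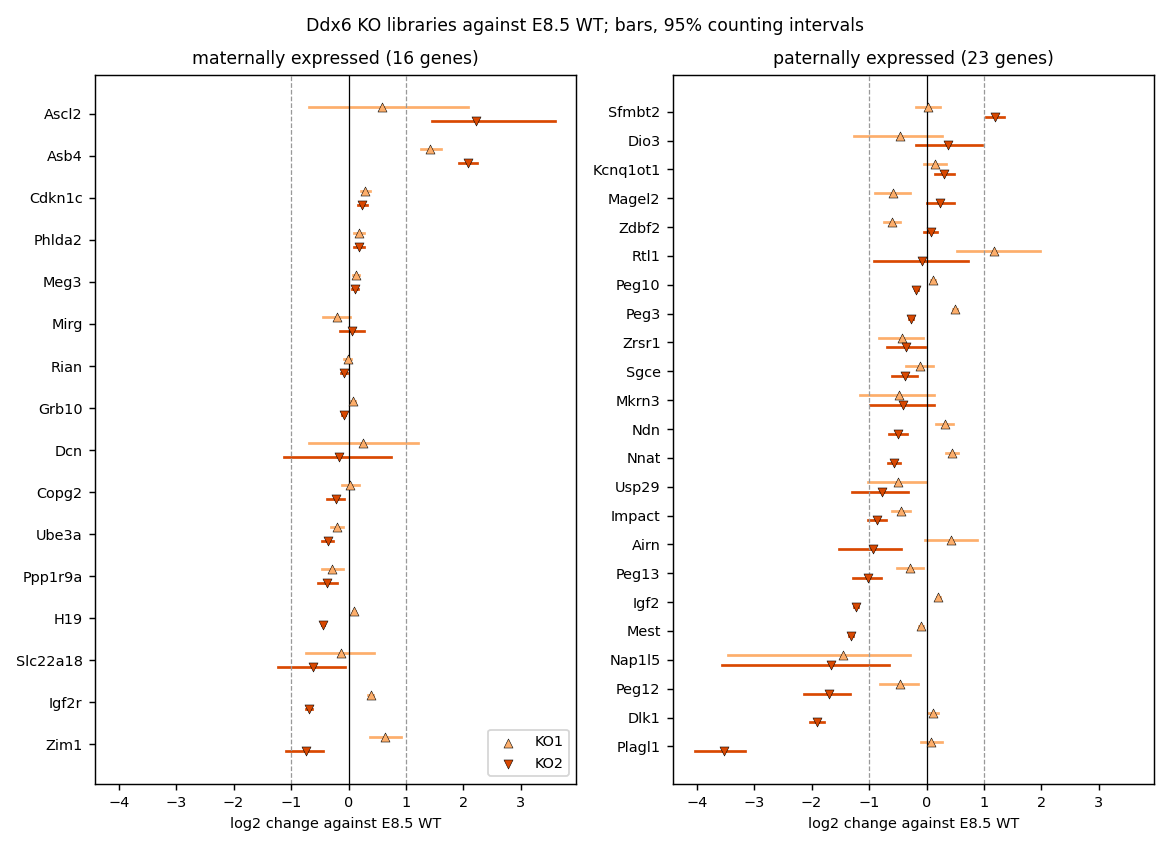
Log2 change against E8.5 WT of each kept maternally expressed (left) and paternally expressed (right) imprinted gene in KO1 and KO2, with 95% counting intervals as bars and the threshold of 1 as dashed lines. Asb4 is above 1 and Nap1l5 below -1 in both libraries, and Igf2, Mest, Dlk1, Peg12, Peg13 and Plagl1 lie below -1 in KO2 and not in KO1.

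More members passed the threshold in KO2 than in KO1. In KO1, 2 members (Asb4 and Rtl1) were higher than in E8.5 WT, beside 4.97% of all genes, and 1 (Nap1l5) was lower, beside 3.31%. In KO2, 3 members (Ascl2, Asb4 and Sfmbt2) were higher, beside 9.41%, and 7 (17.1%) were lower, beside 5.91%. All 7 lower members were paternally expressed. KO2 was below KO1 by more than the threshold at 10 members (24.4%), beside 4.89% of all genes, and above it at 2 (Ascl2 and Sfmbt2), beside 5.99%. At any size, 16 of 23 paternally and 13 of 16 maternally expressed members were lower in KO2 than in KO1, beside 46.8% of genes. Each KO library is 1 pool, so this difference between them has no test. The libraries also differed in Xist, the noncoding RNA that coats the inactive X chromosome of female cells, which had 46 reads at E7.5 and 17 at E8.5 in WT embryos, against 15 in KO1 and 17340 in KO2. The sex of the embryos was not in the labels, and its part in the differences of KO2 was not tested.

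Several paternally expressed growth genes were lower in KO2 alone. Igf2 (chr7:142650766-142666816, minus strand) had 1109 CPM at E7.5 and 2075 at E8.5 in WT embryos, against 2388 in KO1 and 883 in KO2. KO1 was near E8.5 WT and KO2 was below both wild-type libraries. Relative to E8.5 WT the log2 change was 0.20 (0.18 to 0.23) in KO1 and -1.23 (-1.27 to -1.20) in KO2, and the mean of -0.52 ± 1.01 (SD, n = 2) did not exceed the spread between the KO libraries. Plagl1 (chr10:13060504-13131694, plus strand) had 33 reads at E7.5 and 603 at E8.5 in WT embryos, against 437 in KO1 and 50 in KO2. The KO1 level was 52.0 CPM beside 49.1 in E8.5 WT, and the KO2 level of 4.10 was 11.5-fold lower, a log2 change of -3.52 (-4.03 to -3.16) that was near the level of E7.5 WT. Mest (chr6:30723547-30748465, plus strand) had 233 CPM at E7.5 and 1373 at E8.5 in WT embryos, against 1291 in KO1 and 553 in KO2, so that KO2 lay between the wild-type stages and KO1 beside E8.5 WT. Dlk1, a transmembrane protein related to Notch ligands, had 84.9, 197, 213 and 52.4 CPM in the same order, and KO2 was below all other libraries. The 5 extraembryonic mesoderm markers summed to 778 CPM in KO2 as in E8.5 WT, beside 1119 in KO1. Their median log2 change in KO2 was -0.50 against E8.5 WT, with a range of -6.79 to 0.87. Against KO1 it was -0.74, with a range of -3.54 to -0.35. Of the 5, 1 was lower in KO2 than in E8.5 WT by more than the threshold (Tbx4, with 5 reads in KO2, 56 in KO1 and 799 in E8.5 WT). The part of this tissue in these levels was not tested.

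Among the other members lower in KO2, Peg12 had 2.86, 18.7, 13.5 and 5.66 CPM and Peg13, a noncoding RNA in an intron of Trappc9, had 13, 35.6, 29.2 and 17.4, in the order of libraries used above. Nnat, which encodes the membrane protein neuronatin, had 63.4, 135, 183 and 91.3 CPM, and the level was above E8.5 WT in KO1 and below it in KO2. Of the maternally expressed members, Igf2r had 325, 681, 889.8 and 422 CPM and Zim1 had 2.77, 17.9, 27.9 and 10.6 CPM. Both were highest in KO1 and in KO2 lay between the wild-type stages, as did Airn, the noncoding RNA that silences Igf2r on the paternal allele, with 2.1, 7.24, 9.76 and 3.69 CPM. The members lower in KO2 than in KO1 were therefore of both parental classes, 2 maternally and 8 paternally expressed.

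Ascl2 and Sfmbt2 went the other way. Ascl2 had 54 reads in KO2, beside 11 in KO1 and 10 in E8.5 WT, a log2 change in KO2 of 2.22 (1.46 to 3.58), but E7.5 WT had 358 reads. The level of Sfmbt2 in KO2 was 2.28-fold that of E8.5 WT, a log2 change of 1.19 (1.03 to 1.36), and 1.60-fold lower than in E7.5 WT. All 4 kept giant cell markers were higher in KO2 than in E8.5 WT, at a summed 753 CPM. Of the 5 extraembryonic ectoderm markers, 2 were higher in KO2, Eomes with 3128 reads beside 64 and Elf5 with 10 beside 3. Per the study's text, Eomes stayed high in the primitive streak of E8.5 KO embryos from before the head fold. Its reads are thus not particular to extraembryonic ectoderm. Cdx2 was lower, with 150 beside 1326, and the part of trophoblast in the levels of Ascl2 and Sfmbt2 was not tested. Phlda2, which limits placental growth, had 269 CPM at E7.5 and 176 at E8.5 in WT embryos, against 200.2 in KO1 and 199.7 in KO2, and Slc22a18, a transporter-like gene, had 107, 66, 41 and 42 reads, without a call against E8.5 WT. In KO2, Ascl2, Sfmbt2 and Phlda2 were thus above E8.5 WT and Slc22a18 was below it, and Ascl2 and Sfmbt2 alone passed the threshold.

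The third comparison set the KO libraries against the earlier stage. It shares the KO libraries with the comparison above, so the values are given side by side and not as separate support. Both KO libraries were above E7.5 WT at 9 of 41 members, beside 6.91% of all genes, and below it at 1 (Ascl2), beside 2.7%. The 9 were Cdkn1c, Zim1, Asb4 and Grb10 of the maternally expressed genes and Peg3, Mest, Rtl1, Ndn and Zdbf2 of the paternally expressed ones. All but Asb4 were among the 20 members that were higher in E8.5 WT. By edgeR 0 members and 0% of genes had an adjusted p under 0.05, and 14 had an unadjusted p under 0.05, beside 24.4% of genes. By DESeq2, 8 of 38 members passed (Cdkn1c, Ascl2, Zim1, Asb4, Grb10, Ndn, Ube3a and Zdbf2), beside 6.21% of genes.

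Cdkn1c and Grb10, maternally expressed inhibitors of growth, were at like levels in the 3 libraries of E8.5 embryos. Cdkn1c, an inhibitor of cyclin-dependent kinases, had 105 CPM at E7.5 and 217 at E8.5 in WT embryos, against 265 in KO1 and 256 in KO2. Grb10, an adaptor that inhibits the insulin and IGF receptors, had 546 CPM at E7.5 and 1286 at E8.5 in WT embryos, against 1360.4 in KO1 and 1209.8 in KO2. All 3 libraries of E8.5 embryos lay above E7.5 WT. The log2 changes of Cdkn1c against E7.5 WT were 1.33 in KO1 and 1.28 in KO2, and those of Grb10 were 1.32 and 1.15. Ndn, which encodes necdin, had 19.8, 65.8, 81.8 and 46.8 CPM, and Zdbf2, a zinc finger gene, had 28.8, 105, 69.1 and 111. Igf2, Plagl1, Dlk1, Peg12, Peg13, Igf2r, Airn and Nnat passed the threshold above E7.5 WT in KO1 and not in KO2.

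The clusters were then compared gene by gene. At the Igf2/H19 domain, where a methylated control region divides enhancers between the 2 genes, H19 (chr7:142575529-142578143, minus strand) had 5854 CPM at E7.5 and 4262 at E8.5 in WT embryos, against 4545 in KO1 and 3140.3 in KO2. Its log2 change from E8.5 WT was 0.09 in KO1, against -0.44 in KO2, smaller than that of Igf2 in KO2. Reads of Igf2 per 100 reads of H19 were 18.9 at E7.5 and 48.7 at E8.5 in WT embryos, against 52.5 in KO1 and 28.1 in KO2, and the 95% counting interval was 48.0 to 49.4 in E8.5 WT and 27.5 to 28.7 in KO2. The KO2 ratio lay between those of the wild-type stages and that of KO1 above both. In the Kcnq1ot1 cluster, the silencing RNA Kcnq1ot1 had 56.0 CPM at E7.5 and 43.4 at E8.5 in WT embryos, against 48.2 in KO1 and 53.6 in KO2, and per 100 reads of Cdkn1c it had 53.2 at E7.5 and 20.0 at E8.5 in WT embryos, against 18.2 in KO1 and 20.9 in KO2. The KO and E8.5 WT ratios had overlapping intervals, and the E7.5 WT ratio was higher.

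In the Dlk1-Dio3 cluster the maternally expressed noncoding RNAs were at like levels in the 3 libraries of E8.5 embryos. Meg3 had 636 CPM at E7.5 and 519 at E8.5 in WT embryos, against 569 in KO1 and 563 in KO2, Rian, which hosts small nucleolar RNAs, had 355, 431, 427 and 408 CPM, and Mirg, which hosts miRNAs, had 54.0, 32.0, 27.7 and 33.3. Against E8.5 WT none of the 3 moved by more than 0.21 on the log2 scale in a KO library. Reads of Dlk1 per 100 reads of Meg3 were 13.4 at E7.5 and 37.9 at E8.5 in WT embryos, against 37.4 in KO1 and 9.31 in KO2, so KO1 was level with E8.5 WT, and KO2 was below both wild-type stages. Rtl1, the gene opposite the miRNAs shown above, had 11 reads at E7.5 and 28 at E8.5 in WT embryos, against 45 in KO1 and 26 in KO2. It was above the threshold in KO1, with a log2 change of 1.17 (0.52 to 1.97), and was -0.09 (-0.92 to 0.73) in KO2, so that its KO mean of 0.54 ± 0.89 (SD, n = 2) did not exceed the spread between the KO libraries. Per 100 reads of Meg3 it had 0.145 at E7.5 and 0.439 at E8.5 in WT embryos, against 0.942 in KO1 and 0.379 in KO2, and the intervals of KO2 and E8.5 WT overlapped. Dio3 was at 23 reads in KO1 and 61 in KO2, on either side of the 47 of E8.5 WT.

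In the Peg3 cluster, Peg3 itself, a zinc finger gene, had 369 CPM at E7.5 and 993 at E8.5 in WT embryos, against 1402 in KO1 and 820.3 in KO2, and Usp29, which starts beside it on the opposite strand, had 53 reads at E7.5 and 104 at E8.5 in WT embryos, against 50 in KO1 and 59 in KO2. Per 100 reads of Peg3, Usp29 had 1.21 at E7.5 and 0.852 at E8.5 in WT embryos, against 0.425 in KO1 and 0.590 in KO2, with intervals of 0.696 to 1.03 in E8.5 WT, 0.315 to 0.560 in KO1 and 0.449 to 0.762 in KO2. Only the interval of KO1 was separate from that of E8.5 WT. In the Mest cluster, Copg2, a coatomer subunit gene that overlaps Mest at its end, had 69.5, 73.9, 75.4 and 63.1 CPM and did not pass the threshold. Mest reads per 100 Copg2 reads were 336 at E7.5 and 1858 at E8.5 in WT embryos, against 1712 in KO1 and 876 in KO2.

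In the Snrpn cluster, the neuronal genes Ndn, Magel2 and Mkrn3, with Peg12 and Ube3a, were detected at this stage. Magel2, a MAGE family gene, had 19.4, 23.6, 15.6 and 27.8 CPM, Mkrn3, a makorin RING finger gene, had 2.1, 5.37, 3.81 and 4.02 and Ube3a, a ubiquitin ligase imprinted mainly in neurons, had 67.5, 150.3, 131 and 117. From E8.5 WT, the median log2 change of the 5 kept genes was -0.47 in KO1, against -0.40 in KO2, beside -0.01 and 0.00 over all genes, and Peg12 in KO2 was the 1 gene past the threshold. Snrpn, the splicing protein gene that names the cluster, had 0 reads at E7.5 and 0 at E8.5 in WT embryos, against 2 in KO1 and 1 in KO2. The 216 exon bases of Snurf, an upstream reading frame gene with 0, 0, 1 and 0 reads, are all shared with Snrpn on the same strand in GENCODE. Snrpn has 2159 exon bases there. The annotation over which the authors counted was not used here, and how Snrpn was counted was not tested. The few reads therefore do not show that Snrpn was silent.

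**Figure D4:**
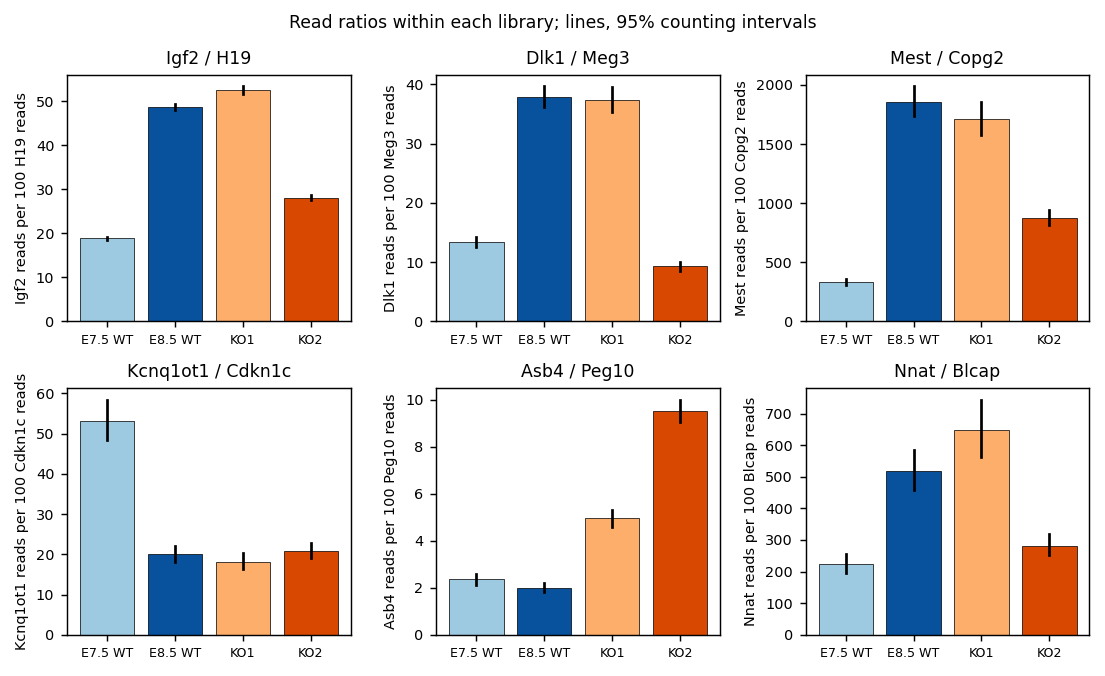
Reads of 1 gene per 100 reads of another within each library, for 6 pairs of the same cluster or locus. In each pair at least 1 gene is imprinted. Bars start at 0 and lines are 95% counting intervals. Igf2 per H19, Dlk1 per Meg3, Mest per Copg2 and Nnat per Blcap are lower in KO2 than in KO1 and E8.5 WT, Kcnq1ot1 per Cdkn1c is level in the 3 E8.5 libraries, and Asb4 per Peg10 is 4.95 in KO1 and 9.51 in KO2 beside 1.99 in E8.5 WT.

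Imprinted genes inside or beside other genes gave further pairs. Peg13 per 100 reads of its host Trappc9 was 46.2 at E7.5 and 144 at E8.5 in WT embryos, against 116 in KO1 and 88.7 in KO2. Zrsr1, a retrogene of a splicing factor in an intron of Commd1, was 27.6 at E7.5 and 31.8 at E8.5 in WT embryos, against 26.0 in KO1 and 30.2 in KO2, with overlapping intervals in all 4 libraries. Nnat per 100 reads of Blcap, the gene that contains it, was 223 at E7.5 and 517 at E8.5 in WT embryos, against 647 in KO1 and 282 in KO2. Airn per 100 reads of Igf2r was 0.646 at E7.5 and 1.06 at E8.5 in WT embryos, against 1.10 in KO1 and 0.875 in KO2, and the intervals of all 4 libraries had values in common. Peg13 and Nnat were lower against their hosts in KO2 than in E8.5 WT, and neither host gave a call. Of 17 kept hosts and close neighbours, 0 passed the threshold in both KO libraries against E8.5 WT, beside 3.44% and 1.79% of all genes, and their median log2 changes were -0.03 in KO1 and -0.26 in KO2.

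Of the members without a neighbour in the list, Gnas, the locus of the stimulatory G protein subunit, had 805 CPM at E7.5 and 852 at E8.5 in WT embryos, against 879 in KO1 and 842 in KO2, a range of little width. Inpp5f, a phosphatase gene with an imprinted short variant, had 53.0, 66.8, 74.7 and 87.6 CPM and Dcn, the matrix protein decorin, had 13, 23, 19 and 20 reads. Neither passed the threshold in any of the comparisons. For Gnas and Inpp5f, counts per gene sum isoforms that differ in imprinting.

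By expressed parent, the median log2 change against E8.5 WT of maternally expressed members was 0.11 in KO1 and -0.13 in KO2, and that of paternally expressed members -0.09 and -0.49, beside -0.01 and 0.00 for all genes. In KO2, 18 of 23 paternally and 10 of 16 maternally expressed members were below E8.5 WT at any size, beside 50.1% of genes. In KO1 these were 12 of 23 and 5 of 16, beside 50.9%. Without the members reported as imprinted mainly in extraembryonic tissue or neurons, the medians were 0.11 and -0.08 over 10 maternally expressed genes and -0.10 and -0.53 over 22 paternally expressed genes. The lower median in KO2 was that of the class with the larger median rise from E7.5 to E8.5 in wild-type embryos. Both medians use the E8.5 WT library, so they are not separate observations.

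Genes that act on imprints were measured beside the members. Kept genes for imprint control (zinc finger proteins, DNA methyltransferases, chromatin and insulator proteins) numbered 15. Of these, 0 passed the threshold in both KO libraries against E8.5 WT, beside 3.44% of all genes higher and 1.79% lower. In KO2, 2 of them (Dnmt3b and Dnmt3l) were higher, beside 9.41%, and 0 were lower, beside 5.91%. The Dnmt3l call rests on 14 reads in KO2 and 5 in E8.5 WT. Its log2 counting interval, -0.06 to 3.32, includes 0. The median log2 changes of the 15 genes were -0.20 in KO1 and -0.01 in KO2. Zfp57 had 480, 361, 214 and 395 reads in the order used above, and its partner Trim28, a corepressor, had 21551, 16248, 10224 and 16207. Dnmt3b, a de novo DNA methyltransferase, had 18206, 5529, 4802 and 28440 reads, and Dnmt3l, its cofactor, had 618, 5, 3 and 14. These 2 genes were high in E7.5 WT and low in E8.5 WT and KO1, and Dnmt3b was above all other libraries in KO2. DNA methylation was not measured.

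Other genes of the insulin-like growth factor axis, in which Igf2 is a ligand, were examined beside the members. Of 14 genes, 0 passed the threshold in both KO libraries against E8.5 WT, beside 3.44% of all genes higher and 1.79% lower. In KO2 alone 3 were lower and 1 was higher, beside 5.91% and 9.41% of all genes. The median log2 changes were -0.16 in KO1 and -0.43 in KO2. Igf1 had 28 reads at E7.5 and 96 at E8.5 in WT embryos, against 50 in KO1 and 39 in KO2. Igfbp5, an IGF binding protein, had 803, 3466, 2080 and 774, and Pappa, a protease that cleaves such proteins, had 55, 209, 101 and 65. All 3 were higher in E8.5 WT than in E7.5 WT, and in KO2 were below E8.5 WT by more than 1 on the log2 scale, while KO1 was not. Igfbp3, another binding protein, had 372, 237, 156 and 478 reads and was the 1 higher in KO2. The receptor gene Igf1r had 1369, 2480, 1562 and 1854 reads, without a call.

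A further 28 kept genes reported as imprinted, which were not members, gave 1 call in each direction in both KO libraries against E8.5 WT. Such calls were 3.44% of all genes for higher and 1.79% for lower. In KO1, 2 were higher and 1 was lower, and in KO2 5 were higher and 3 were lower. The shares of all genes were 4.97% and 3.31% in KO1, with 9.41% and 5.91% in KO2. Klf14, a maternally expressed transcription factor gene near Mest, had 29 reads at E7.5 and 147 at E8.5 in WT embryos, against 46 in KO1 and 30 in KO2, and its log2 changes were -1.10 (-1.64 to -0.64) and -2.20 (-2.90 to -1.71). Rasgrf1, a paternally expressed exchange factor gene, had 3, 1, 9 and 12 reads, where the 1 read of E8.5 WT is under the floor of 3. Slc38a4, a paternally expressed amino acid transporter gene, had 1437, 2658, 1777 and 1270 reads, and was at -0.03 in KO1 and -1.05 in KO2, which made it 1 of the 3 lower in KO2. The medians of the 28 were -0.03 in KO1 and 0.20 in KO2.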

How the data were processed

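RNA of embryos was sequenced with a stranded mRNA kit. The authors deposited raw counts per gene, without normalization. Per their methods and the submitters' processing notes, reads were trimmed with Cutadapt 2.8, checked with FastQC 0.11.7, aligned to mm10 with HISAT2 2.1.0 and counted strand-specifically over exons with featureCounts 2.0.0, and SAMtools 1.9 was used. Groups came from the sample labels.

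Counts were scaled by TMM over all genes in edgeR 4.0.16 (R 4.3.3), and genes with at least 10 counts in 1 library were kept. Log2 changes used a prior count of 2. Intervals are exact Clopper-Pearson 95% intervals of a gene's reads between 2 libraries, and cover counting error only, as does the floor of 3 counts. Two-sided edgeR quasi-likelihood tests used Benjamini-Hochberg adjustment over all genes. They compared KO with each WT stage (3 groups, spread from the KO libraries alone) and with both as 1 group. The fold rule was checked on simulated counts with no set difference between the WT stages or between the KO libraries. No such requirement was set for the edgeR tests. DESeq2 1.42.0 was the alternative. Positions and exon lengths came from GENCODE on GRCm38, the assembly of mm10, and sequences from RefSeq on GRCm38.p6. Python 3.11.15 with matplotlib 3.10.9 made the figures. All members, and list genes given as examples, were named. Full values were given for members past the threshold and for those of 6 clusters. The members and gene lists were chosen with earlier results of these data known, and the expressed parent was assigned from textbook knowledge, not measured.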

Additional observations from a re-analysis of the deposited data

How the results depend on the processing

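Scaling by DESeq2 size factors or plain CPM, no filter and a prior count of 0.5 left the number of members past the log2 threshold within 1.5 times its value in every comparison of libraries. At a threshold of 2, the members called against E8.5 WT in both KO libraries were 0 higher and 0 lower, and those above E7.5 WT in both were 0. Between wild-type stages 5 were then higher and 1 lower in E8.5 WT, and KO2 was above KO1 at 0 and below it at 2 (Plagl1 and Dlk1). With a minimum of 50 counts Nap1l5 was not kept and 0 members were lower. Leaving out 1 KO library gave 2 to 3 members above and 1 to 7 below E8.5 WT, the 7 being those of KO2 alone, and 9 to 17 above and 2 to 3 below E7.5 WT. In edgeR against both WT libraries, leaving out 1 KO library gave 0 to 1 adjusted calls, with Asb4 called when KO1 was left out and KO2 was assumed to vary like the WT libraries. With DESeq2 the adjusted calls were 1 for E8.5 WT, 8 for E7.5 WT and 1 for both, and with no filter edgeR gave 8 against E7.5 WT. Of 86 alternatives for counts and medians, 67 stayed within their limit, as did 194 of 202 for single members. No member past the threshold changed direction. The median change of maternally expressed members against E8.5 WT, -0.0087 on the log2 scale, became 0.05 by plain CPM, 0.0024 at a minimum of 50 counts, 0.11 without KO2 and 0.01 without the members imprinted mainly in extraembryonic tissue or neurons. By plain CPM the mean KO changes of Rian, Peg10, Grb10, Dio3 and Zim1, all within 0.06 of 0, also turned from below to above 0. No paired analysis was possible because replicate numbers were given for the KO libraries alone. With 1 library for each WT stage, no spread of WT embryos was known, and genes with few reads (Nap1l5, Rtl1, Ascl2, Dcn) had wide counting intervals.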
